A study of Homo sapiens with 12 samples.

Results

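Cyclophilins are peptidyl-prolyl isomerases, enzymes that turn the bond before a proline residue, and they are the proteins that the immunosuppressant cyclosporin A (CsA) binds in cells. Transcripts of 10 human cyclophilin genes, PPIA, PPIB, PPIC, PPID, PPIE, PPIF, PPIG, PPIH, PPIL1 and PPIL3, were followed in HK-2, an established human cell line that derives from the epithelium of the kidney's proximal tubule. The members were set by gene name out of 19775 genes with a probe set of their own, and every probe set annotated to exactly 1 member was taken. That gave 22 of the 54675 probe sets on the array. Of these, 18 passed the filter on low values (log2 value above 4 on at least 3 arrays), and all 10 genes were represented among them.

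The 4 groups held 3 arrays each: cells exposed to CsA for 48 h, vehicle controls at 48 h, cells exposed to CsA for 12 h, and vehicle controls at 12 h. Cells were plated the day before exposure, in a medium that contained EGF, hydrocortisone, insulin, transferrin and selenite in all groups, and were treated when nearly confluent. The labels call the replicates biological, and all come from this single cell line. The labels state neither how much CsA was added nor what the vehicle was. A value is a probe set's log2 signal after GCRMA, the summary method that the authors used, and replicates 1, 2 and 3 are given in that order.

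CsA first binds a cyclophilin, chiefly PPIA in the cytosol, and the complex then inhibits calcineurin, a phosphatase that activates NFAT transcription factors. The other family members work in different compartments. PPIB and PPIC serve protein folding along the secretory pathway, and PPIF acts in the mitochondrial matrix, where it sensitizes the permeability transition pore. PPID accompanies Hsp90, and PPIE, PPIG, PPIH, PPIL1 and PPIL3 are nuclear proteins tied to pre-mRNA splicing. CsA is known for its toxicity to the proximal tubule.

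Each array had between 42.2% and 42.8% of its probe sets above a log2 value of 4. The hybridization controls had a median of 7.38 on the third CsA array of 48 h, while the remaining 11 arrays lay between 9.89 and 11.42. The poly-A controls were low on the first array of both 48 h groups, with medians of 5.04 (CsA) and 4.32 (control), while all other arrays had 8.38 to 10.18. The 48 h arrays also varied more among themselves: the SD of a tested probe set had a median of 0.22 among CsA arrays and 0.17 among control arrays, and 0.12 in either 12 h group. Of 12 proximal tubule markers on the array, 5 lay above 4 on every array, among them SLC4A4, CDH6 and PAX8. LRP2, CUBN, AQP1, ANPEP and GGT1, which define the differentiated tubule, lay above 4 on none. Markers of endothelium (4), leukocytes (2) and podocytes (2) were above 4 on no array. Of 3 markers of distal tubule and collecting duct, AQP2 was above 4 on every array and 2 on none. On every array 3 of 4 epithelial markers were above it, and so were 2 of 5 fibroblast markers, COL1A1 and LUM. Because whole cultures were assayed, fewer cells of a type and less RNA per cell cannot be told apart.

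No cyclophilin transcript passed the test with CsA at either time. At 12 h, 0 of the 18 probe sets passed (limma with Benjamini-Hochberg adjustment, threshold 0.05), and neither did any of the 20625 probe sets tested, 0%. Without adjustment 2 of 18 had a p under 0.05, both of PPIB, beside 6.50% of all probe sets, and the same 2 had CsA arrays that did not overlap the controls, beside 12.0%. The median change of the 18 was -0.02, and the median over all probe sets was 0. PPIB aside, the changes at 12 h lay between -0.15 and 0.08.

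At 48 h again 0 of 18 passed, in a comparison where 8 probe sets did, all lower with CsA (0.0388%). An unadjusted p under 0.05 was found for 3 of 18, of PPIB, PPIE and PPIG, beside 19.5% of all probe sets. The arrays of the groups did not overlap for 8 of the 18 probe sets, which belong to 7 genes, beside 27.5% of all. Of these, 4 lay above the controls (both of PPIB, with 1 each of PPIE and PPID) and 4 lay below (PPIA, PPIL1, PPIL3 and 1 of PPIG). The median change was -0.01 for the 18 and -0.01 for all probe sets, and the median size of a change regardless of sign was 0.16 for the 18 and 0.22 for all. In the test of the difference between the CsA effects at 48 h and 12 h, 0 of 18 passed, beside 0.320% of all probe sets. Without adjustment 2 of 18 had a p under 0.05 there, of PPIG and PPIL1, beside 3190 of the 20625 tested.

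**Figure D1:**
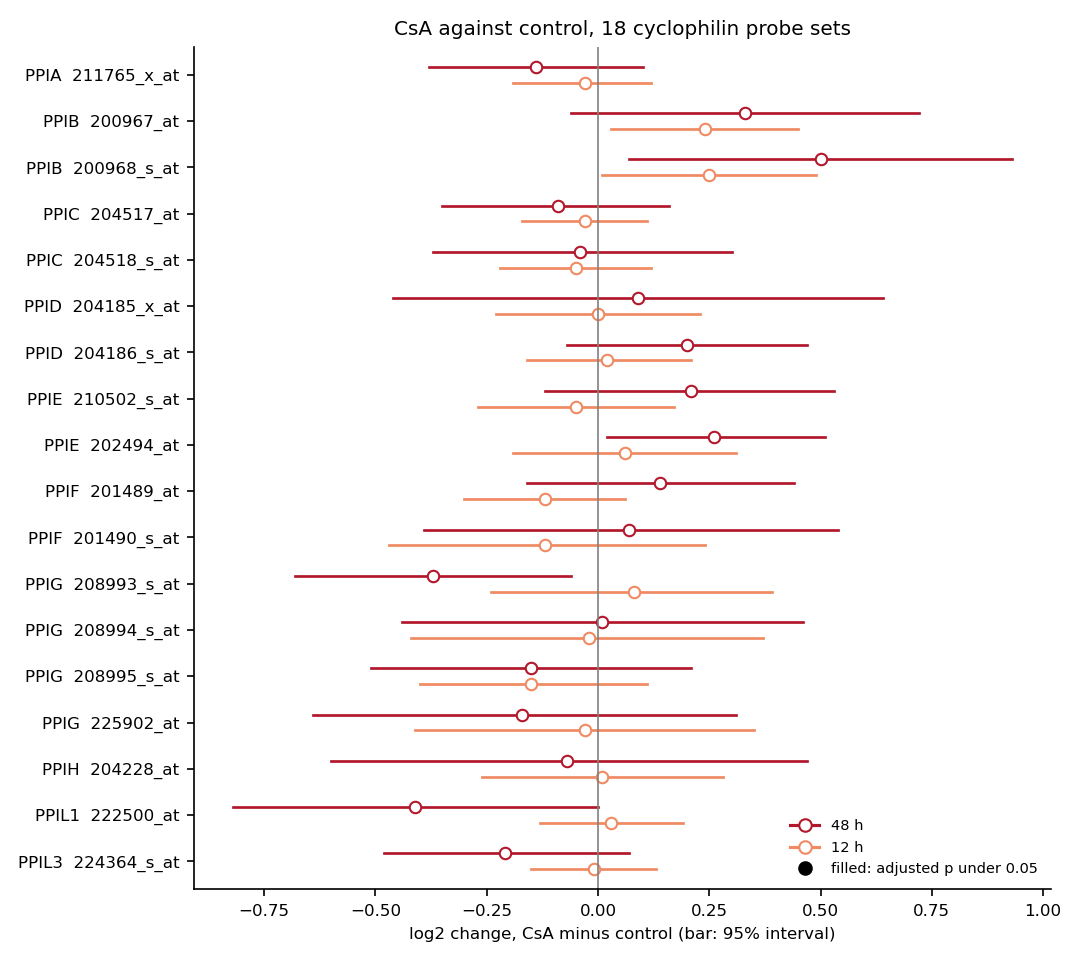
Log2 change with CsA (CsA minus control) of the 18 cyclophilin probe sets at 48 h (dark red) and 12 h (orange), with 95% intervals from limma on 3 arrays a group. All symbols are open because no adjusted p was under 0.05, and the 2 PPIB probe sets have the largest positive values at both times, 0.33 and 0.50 at 48 h and 0.24 and 0.25 at 12 h.

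Time in culture was compared next. In control cells at 48 h against 12 h, 9 of the 18 probe sets passed, beside 39.3% of all probe sets. Higher at 48 h were 6, both of PPIB, both of PPIE, and those of PPIL1 and PPIL3, where 20.4% of all probe sets were higher. Lower at 48 h were 3, both of PPIF and that of PPIH, where 18.8% of all were lower. Without control 12 h replicate 2, 5 of the 18 passed in controls, beside 30.9% of all probe sets. In CsA cells at 48 h against 12 h, a comparison added after the data had been examined, 7 of 18 passed, beside 39.6% of all. Here 5 were higher, both of PPIB, both of PPIE and 1 of PPID, beside 19.6% of all, and 2 were lower, that of PPIH and 1 of PPIG, beside 20.0% of all. Without CsA 12 h replicate 1 or without CsA 48 h replicate 1, 4 of the 18 passed, beside 27.1% and 30.2% of all probe sets.

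**Figure D2:**
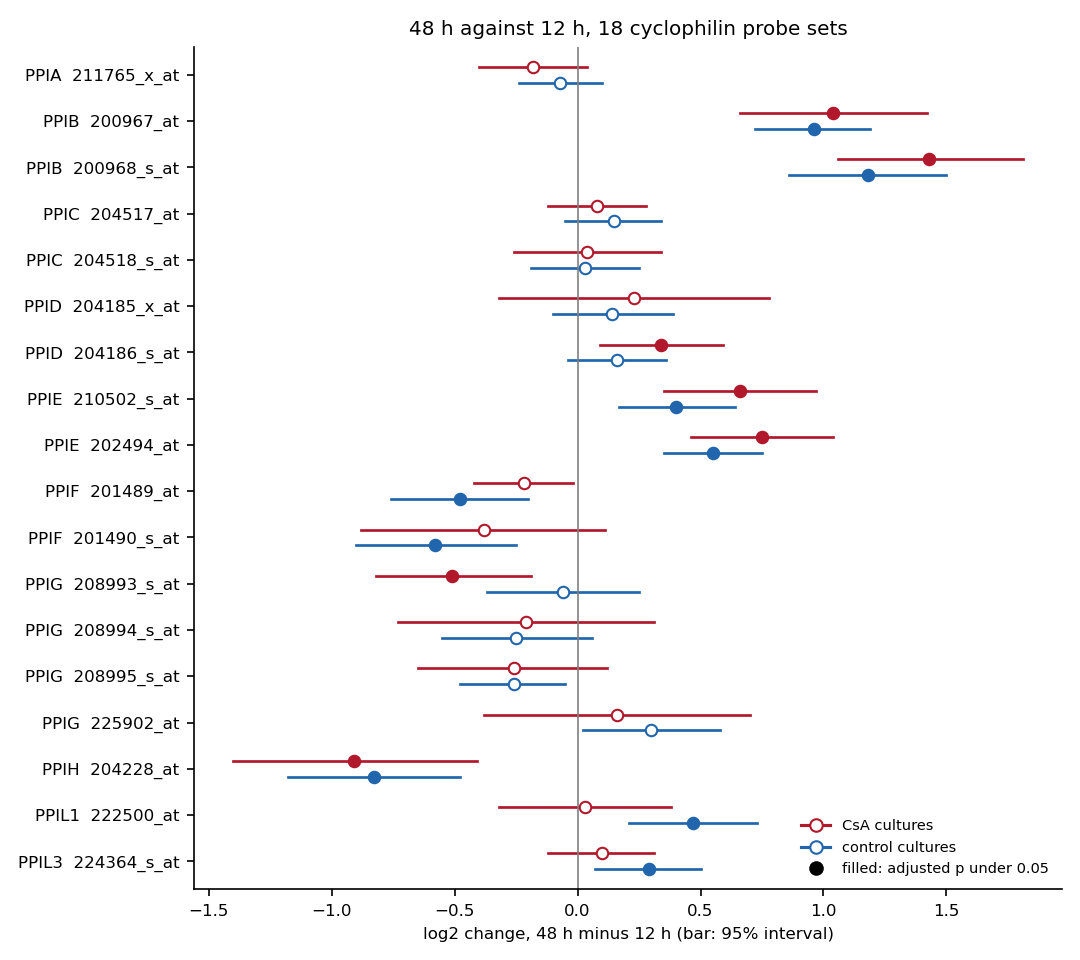
Log2 change between 48 h and 12 h (48 h minus 12 h) of the 18 cyclophilin probe sets in CsA cultures (red) and control cultures (blue), with 95% intervals on 3 arrays a group and filled symbols where the adjusted p was under 0.05. PPIB and PPIE lie to the right and PPIH to the left in both kinds of culture, with both PPIB probe sets between 0.96 and 1.43.

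PPIA, cyclophilin A, is the abundant cytosolic isomerase through which CsA reaches calcineurin. Its single usable probe set of its own, 211765_x_at, read 15.14, 15.14 and 15.04 with CsA at 48 h, against 15.27, 15.25 and 15.23 in the 48 h controls. At 12 h it read 15.20, 15.30 and 15.36 with CsA, against 15.31, 15.34 and 15.31 in controls. All CsA arrays at 48 h lay below all controls, by little, and the 12 h groups overlapped. The log2 change was -0.14 at 48 h (SE 0.10, 95% interval -0.38 to 0.10, adjusted p = 0.476) and -0.03 at 12 h (SE 0.06, interval -0.19 to 0.12, adjusted p = 0.962). The group means were 15.11 (CsA) and 15.25 (control) at 48 h and 15.29 (CsA) and 15.32 (control) at 12 h. Between 48 h and 12 h PPIA changed by -0.18 in CsA cells (SE 0.09, adjusted p = 0.169) and by -0.07 in controls (SE 0.07, adjusted p = 0.448). Neither these nor the CsA comparisons passed, and CsA at 12 h, whose mean lies next to that of control at 48 h, was not tested against it. The highest probe set on each array read between 16.39 and 16.76, so PPIA lay near the top of the scale, and whether its signal was saturated was not tested.

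The probe sets of PPIA need care because its coding sequence has many processed copies: the RefSeq gene table lists 90 pseudogenes named PPIAP and 7 related PPIAL4 genes. The suffix x_at marks probe sets whose probes can match other transcripts. Besides 211765_x_at, 6 probe sets are annotated to PPIA together with the pseudogene PPIAP34, and they were fitted in a separate run over 23671 probe sets of any annotation. Among the 5 bright x_at sets, counting the one already given, CsA at 48 h lay below control on all arrays for all 5, with changes of -0.14 to -0.10 and adjusted p of 0.475 to 0.607. In that run 27.2% of all probe sets did not overlap at 48 h. At 12 h the same 5 gave -0.03 to -0.01, and none was separated. They may share probes, so they are not independent measurements of PPIA.

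A shared set with another pattern was 226336_at. It read 10.80, 11.07 and 10.78 with CsA at 48 h, against 11.21, 11.48 and 11.42 in the 48 h controls, with no overlap. At 12 h it read 11.55, 11.67 and 11.66 with CsA, against 11.71, 11.69 and 11.61 in controls, which overlapped. The change with CsA was -0.49 at 48 h (SE 0.14, interval -0.82 to -0.15, adjusted p = 0.149) and -0.04 at 12 h (SE 0.07, adjusted p = 0.950). At 48 h against 12 h it fell by 0.74 in CsA cells (SE 0.11, adjusted p = 0.00438), where 19.2% of all probe sets in that run were lower, and its change in controls was -0.30 (SE 0.10, adjusted p = 0.0537, and -0.36 with adjusted p = 0.0475 without control 48 h replicate 2). The x_at sets changed by -0.18 to -0.16 over the same time in CsA cells. Which transcript 226336_at follows was not tested. The remaining shared set, 217602_at, was dim, between 5.16 and 6.65 on all arrays, and overlapped in both CsA comparisons, and 235741_at, of PPIA alone, stayed near background at 2.05 to 2.11.

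**Figure D3:**
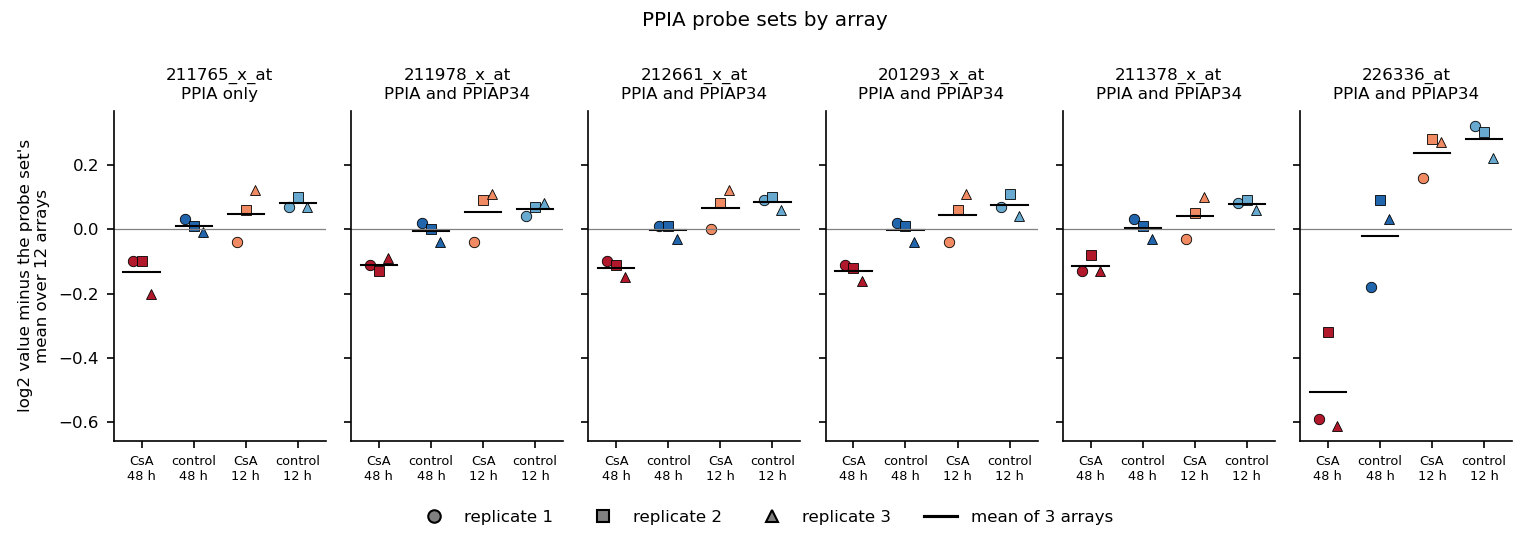
Log2 values of 6 PPIA probe sets on each of the 12 arrays, each shown as the difference from that probe set's own mean, with a line at the mean of 3 arrays. The 5 x_at sets lie close together in each group, and 226336_at lies lowest with CsA at 48 h, where its values were 10.80, 11.07 and 10.78.

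PPIB, cyclophilin B, is the isomerase of the endoplasmic reticulum (ER), where it assists collagen and other client proteins. Both of its probe sets passed the filter. The first, 200967_at, read 15.02, 15.08 and 15.47 with CsA at 48 h, against 14.83, 14.73 and 15.02 in the 48 h controls. At 12 h it read 14.12, 14.02 and 14.31 with CsA, against 13.91, 13.88 and 13.93 in controls. The CsA arrays were above the controls at both times, although at 48 h the lowest CsA array and the highest control array both rounded to 15.02. The log2 change was 0.33 at 48 h (SE 0.16, interval -0.06 to 0.72, adjusted p = 0.327) and 0.24 at 12 h (SE 0.09, interval 0.03 to 0.45, adjusted p = 0.710).

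The other PPIB set, 200968_s_at, read 14.55, 14.47 and 14.91 with CsA at 48 h, against 13.99, 14.03 and 14.40 in the 48 h controls. At 12 h it read 13.07, 13.19 and 13.37 with CsA, against 12.97, 12.87 and 13.05 in controls. Every CsA array again lay above every control of its time. The change was 0.50 at 48 h, 1.41-fold (SE 0.18, interval 0.07 to 0.93, adjusted p = 0.207), and 0.25 at 12 h, 1.19-fold (SE 0.10, interval 0.01 to 0.49, adjusted p = 0.757). The difference between these effects was 0.25 (SE 0.21, adjusted p = 0.606). Without CsA 48 h replicate 3, the array with the low hybridization signal, the 48 h changes were 0.19 for 200967_at and 0.37 for 200968_s_at.

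PPIB rose with time in both kinds of culture. In controls it rose by 0.96 on 200967_at, 1.94-fold (SE 0.10, adjusted p = 0.000897), and by 1.18 on 200968_s_at, 2.27-fold (SE 0.13, adjusted p = 0.00124). In CsA cells the rises were 1.04 (SE 0.15, adjusted p = 0.00387) and 1.43 (SE 0.15, adjusted p = 0.00140). All 3 arrays at 48 h lay above all 3 at 12 h in either kind of culture. The group means of 200967_at were 15.19 (CsA) and 14.86 (control) at 48 h, above 14.15 (CsA) and 13.91 (control) at 12 h. Within a kind of culture the step in time passed, within a time the step between CsA and control did not, and CsA at 12 h was not tested against control at 48 h. Both calls in controls held in each fit that left out 1 array, with changes of 0.88 to 1.02 and 1.05 to 1.25 in controls.

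The promoters of PPIB and PPIA are shown with the letters that begin and end the ER stress element, a site described in promoters of ER folding genes. Only exact letters were searched, and the promoters of the folding partners were not counted by themselves. Whether the element bears on the rise of PPIB was not tested. The sequences are the 250 bases before the annotated start, from RefSeq on GRCh38.p14, with CCAAT and CCACG on either strand in capitals. PPIB lies at chr15:64163023-64163272 on the minus strand and PPIA at chr7:44796431-44796680 on the plus strand.
PPIB: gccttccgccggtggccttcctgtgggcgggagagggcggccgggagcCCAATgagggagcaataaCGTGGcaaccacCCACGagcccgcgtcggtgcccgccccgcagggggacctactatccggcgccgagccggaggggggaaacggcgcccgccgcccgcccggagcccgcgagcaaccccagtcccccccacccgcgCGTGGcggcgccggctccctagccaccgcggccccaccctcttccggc
PPIA: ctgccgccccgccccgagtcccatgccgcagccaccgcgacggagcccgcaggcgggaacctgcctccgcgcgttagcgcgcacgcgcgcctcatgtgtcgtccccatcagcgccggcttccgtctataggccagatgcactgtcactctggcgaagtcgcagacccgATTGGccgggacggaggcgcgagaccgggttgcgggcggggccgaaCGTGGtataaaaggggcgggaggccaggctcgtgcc
The PPIB window held 1 CCAAT, 202 bases before the start, and 3 copies of CCACG, at 184, 172 and 48 bases. The PPIA window held 1 of each, CCAAT at 82 and CCACG at 36 bases before the start, both on the opposite strand. Among 27305 promoters of the same length, 33.0% held CCAAT, 33.3% held CCACG and 10.4% held both, so their presence is common. The full ER stress element, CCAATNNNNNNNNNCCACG, was in 0.0806% of promoters and in none of the 8 cyclophilin promoters in the table. These matches describe letters in a window and were not tested as sites. PPIE and PPIG were not in the promoter table.

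The ER folding partners of PPIB, a list of 15 genes chosen by function, were all measured. None passed in either CsA comparison. At 12 h, 14 of 15 lay above 0 and the median was 0.23, beside a median of -0.01 over all 11154 genes, and at 48 h 7 of 15 were positive with a median of -0.01, beside 0. The 2 members with the smallest p at 48 h were UGGT1, the sensor of misfolded glycoproteins, with -0.33 (SE 0.13, adjusted p = 0.245) and SERPINH1, the collagen chaperone, with -0.31 (SE 0.14, adjusted p = 0.292). HSPA5, the main Hsp70 of the ER, was chosen after its values were seen. It read 16.23, 16.24 and 16.08 with CsA at 48 h, against 16.12, 16.00 and 16.19 in the 48 h controls, and 15.24, 14.91 and 15.40 with CsA at 12 h, against 14.45, 14.18 and 14.59 in controls. The 48 h values lay close to the highest probe set of those arrays, 16.39 to 16.62, and saturation was not tested. The CsA and control arrays of HSPA5 were apart at 12 h and overlapped at 48 h, while those of PPIB were apart at both times. Those of SERPINH1 were apart at both times too, with CsA lower. Over all probe sets the arrays did not overlap for 12.0% at 12 h and 27.5% at 48 h. PDIA4, another partner chosen after its values were seen, changed by 0.42 at 48 h (SE 0.27) and 0.64 at 12 h (SE 0.13). Its arrays were apart at 12 h and overlapped at 48 h. The 7 partners positive at 48 h were all positive at 12 h too. The difference between the effects at 48 h and 12 h was -0.69 for HSPA5 (SE 0.20, adjusted p = 0.149), against 0.08 (SE 0.19) and 0.25 for the PPIB probe sets. For all 15 partners it was below 0, with a median of -0.23, beside -0.01 over all genes. None of these differences passed the test.

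**Figure D4:**
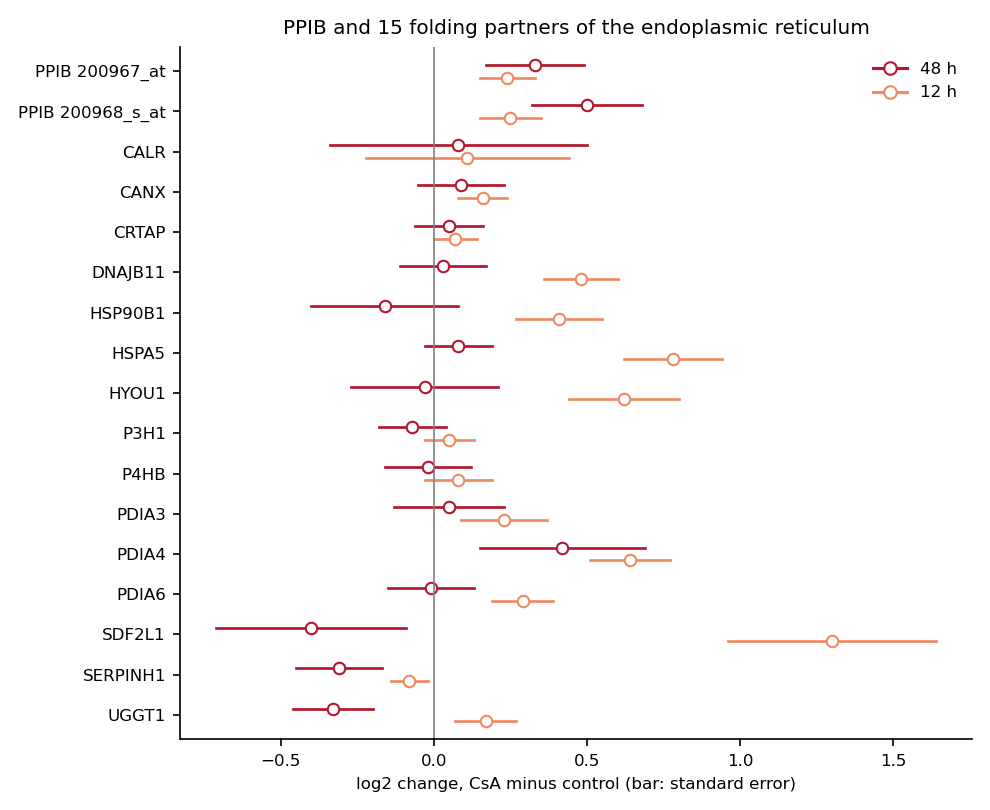
Log2 change with CsA (CsA minus control) of the 2 PPIB probe sets and of 15 genes for folding in the ER at 48 h (dark red) and 12 h (orange), with bars of 1 standard error on 3 arrays a group. At 12 h 14 of the 15 partners lie right of 0, and at 48 h 7 do. Those 7, like PPIB, lie right of 0 at both times, with PDIA4 at 0.42 (48 h) and 0.64 (12 h).

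With time, most of the same list was higher at 48 h, as PPIB was. In controls at 48 h against 12 h, 12 of 15 partners rose and 1, SERPINH1, fell, with a median of 1.12, beside 23.1% and 20.5% of all genes and a median of 0.03. In CsA cells 11 rose and 1 fell, with a median of 0.82, beside 22.3% and 21% of all genes and a median of 0.03. Examples in controls were 4.13 (SE 0.22) for SDF2L1, a stress-induced ER protein, 2.94 (SE 0.18) for HYOU1, an ER chaperone, and 1.70 (SE 0.13) for HSPA5, all chosen after their values were seen. PPIB, with 0.96 and 1.18, was thus among the partners in direction and near their median in size.

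PPIC, cyclophilin C, is a second isomerase of the secretory pathway, and its groups lay close together. Probe set 204517_at read 12.51, 12.52 and 12.55 with CsA at 48 h, against 12.59, 12.55 and 12.72 in the 48 h controls, and 12.50, 12.43 and 12.42 with CsA at 12 h, against 12.47, 12.50 and 12.45 in controls. The groups touched at 12.55 at 48 h and overlapped at 12 h. Its change with CsA was -0.09 at 48 h (SE 0.10, interval -0.35 to 0.16, adjusted p = 0.663) and -0.03 at 12 h (SE 0.06, adjusted p = 0.970). The dimmer 204518_s_at, between 10.36 and 10.72 on all arrays, gave -0.04 at 48 h (SE 0.14) and -0.05 at 12 h (SE 0.07). No change of PPIC with time passed either, with values between 0.03 and 0.15. LGALS3BP, related to a mouse protein that binds cyclophilin C, was the member of the extracellular partners with the smallest p at 48 h, at -0.42 (SE 0.17, adjusted p = 0.265), followed by SDC1, a proteoglycan, at -0.18 (SE 0.11). None of the 3 measured of 5 passed with CsA.

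PPIF, cyclophilin D, is the mitochondrial member and a regulator of the permeability transition pore. Its 201489_at read 12.41, 12.39 and 12.43 with CsA at 48 h, against 12.44, 12.26 and 12.10 in the 48 h controls, and 12.66, 12.60 and 12.65 with CsA at 12 h, against 12.86, 12.75 and 12.64 in controls. The groups overlapped at both times. With CsA the change was 0.14 at 48 h (SE 0.12, interval -0.16 to 0.44, adjusted p = 0.570) and -0.12 at 12 h (SE 0.07, adjusted p = 0.845). Its other set, 201490_s_at, gave 0.07 at 48 h and -0.12 at 12 h, neither past the test, and 0.28 at 48 h without CsA replicate 3, which read 11.24 beside 11.90 and 11.83.

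In control cells PPIF fell with time by 0.48 on 201489_at (SE 0.12, adjusted p = 0.0189) and by 0.58 on 201490_s_at (SE 0.13, adjusted p = 0.0168). In CsA cells the change was -0.22 (SE 0.08, adjusted p = 0.0746) and -0.38 (SE 0.20, adjusted p = 0.178). The test of the difference gave 0.26 (SE 0.14, adjusted p = 0.399) and 0.19 (SE 0.25, adjusted p = 0.765), so the falls were not shown to differ between the cultures. Single arrays decided some of these calls. The first set lost its call in controls without control 12 h replicate 1 (-0.43, adjusted p = 0.0672) or replicate 2 (-0.48, adjusted p = 0.0573). The other lost it without control 48 h replicate 3 (-0.55, adjusted p = 0.0505), and the first gained one in CsA cells without CsA 48 h replicate 3 (-0.23, adjusted p = 0.0477). With array weights the first also gained a call in CsA cells (-0.23, adjusted p = 0.0248). A PPIF set was called in CsA cells with trend and robust priors and with no filter as well.

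Of 17 measured partners of PPIF in the inner membrane and the pore, listed by function, none passed with CsA, and the median was 0 at 48 h and -0.06 at 12 h, beside 0 and -0.01 over all genes. The smallest p at 48 h belonged to ATP5MC1 and ATP5MC3, which encode the ATP synthase c subunit, with -0.52 (SE 0.16, adjusted p = 0.159) and -0.45 (SE 0.16, adjusted p = 0.199). With time 5 of the 17 fell and 1 rose in CsA cells, beside 21% and 22.3% of all genes. In controls 6 fell and 1, the hexokinase HK2, rose, beside 20.5% and 23.1%.

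PPID, or Cyp40, carries tetratricopeptide repeats and sits in Hsp90 complexes with steroid receptors. Its 204186_s_at read 11.30, 11.17 and 11.10 with CsA at 48 h, against 11.04, 10.91 and 11.01 in the 48 h controls, and 10.89, 10.75 and 10.92 with CsA at 12 h, against 10.89, 10.74 and 10.86 in controls. The CsA arrays lay above the controls at 48 h and overlapped them at 12 h. Its change with CsA was 0.20 at 48 h (SE 0.11, interval -0.07 to 0.47, adjusted p = 0.375) and 0.02 at 12 h (SE 0.08, adjusted p = 0.985). At 48 h against 12 h it rose by 0.34 in CsA cells (SE 0.10, adjusted p = 0.0438), and its change in controls was 0.16 (SE 0.08, adjusted p = 0.175). That single call was lost in 5 of 6 fits without 1 array, with 0.35 without CsA 12 h replicate 1, 0.29 without replicate 2, 0.37 without replicate 3, 0.28 without CsA 48 h replicate 1 and 0.35 without replicate 2. The brighter 204185_x_at read 12.20, 12.13 and 11.43 with CsA at 48 h, against 11.98, 11.71 and 11.78 in the 48 h controls. Replicate 3 with CsA was the lowest of all 12 arrays there, and the change was 0.09 with it (SE 0.23) and 0.33 without it. Without that array 204185_x_at also rose with time in CsA cells, by 0.48 (adjusted p = 0.0190), against 0.23 (adjusted p = 0.445) with it.

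Of 11 measured genes for Hsp90 and its co-chaperones none passed with CsA. Their medians were 0.15 at 48 h and -0.03 at 12 h, beside 0 and -0.01 over all genes. FKBP5, an immunophilin that binds FK506, had -0.59 at 48 h (SE 0.19, adjusted p = 0.184) and TTC4, a co-chaperone, 0.32 (SE 0.14, adjusted p = 0.281). In controls 6 of the 11 fell with time and none rose, with a median of -0.40, beside 20.5% of all genes lower. Among the 6 were the Hsp90 genes HSP90AA1 and HSP90AB1. HSP90AA1 itself, chosen after its values were seen, fell by 0.83 (SE 0.08, adjusted p = 0.000865), while the change of PPID with time in controls passed on neither probe set.

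PPIE, or Cyp33, has an RNA recognition motif and belongs to the spliceosome. Its 202494_at read 9.29, 9.21 and 9.21 with CsA at 48 h, against 8.93, 8.92 and 9.06 in the 48 h controls, and 8.51, 8.29 and 8.65 with CsA at 12 h, against 8.49, 8.39 and 8.38 in controls. The groups were apart at 48 h and overlapped at 12 h. The change was 0.26 at 48 h (SE 0.10, interval 0.02 to 0.51, adjusted p = 0.236) and 0.06 at 12 h (SE 0.10, adjusted p = 0.955). The brighter 210502_s_at gave 0.21 at 48 h (SE 0.13, adjusted p = 0.447) and its arrays overlapped, with 10.79, 10.65 and 10.44 under CsA, against 10.44, 10.31 and 10.51 in controls. With time PPIE rose on both sets, by 0.75 (SE 0.12, adjusted p = 0.00467) and 0.66 (SE 0.13, adjusted p = 0.00923) in CsA cells and by 0.55 (SE 0.08, adjusted p = 0.00332) and 0.40 (SE 0.10, adjusted p = 0.0200) in controls. The last of these, of 210502_s_at, was not called without control 12 h replicate 2 (0.35, adjusted p = 0.0662) or 3 (0.40, adjusted p = 0.0667) or without control 48 h replicate 3 (0.36, adjusted p = 0.0559).

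PPIH, cyclophilin H, binds PRPF3 and PRPF4 in the U4/U6.U5 tri-snRNP. Its 204228_at read 9.98, 9.99 and 10.64 with CsA at 48 h, against 10.48, 10.06 and 10.26 in the 48 h controls, and 11.07, 11.01 and 11.24 with CsA at 12 h, against 11.00, 11.00 and 11.30 in controls. CsA and control overlapped at both times, and every 48 h array lay below every 12 h array. It fell with time by 0.91 in CsA cells (SE 0.20, adjusted p = 0.0158) and by 0.83 in controls (SE 0.14, adjusted p = 0.00584). The call in CsA cells was lost without CsA 12 h replicate 1 (-0.93, adjusted p = 0.0527) or 3 (-0.84, adjusted p = 0.0623) or without CsA 48 h replicate 1 (-0.79, adjusted p = 0.0527). The change with CsA was -0.07 at 48 h (SE 0.22, interval -0.60 to 0.47, adjusted p = 0.898), and -0.29 without CsA 48 h replicate 3. At 12 h it was 0.01 (SE 0.11). Its partner PRPF3, looked up after its values were seen, fell with time by 0.78 in CsA cells (SE 0.14) and by 0.59 in controls (SE 0.09). PRPF4 did not pass, with -0.09 in CsA cells (SE 0.09, adjusted p = 0.489) and -0.04 in controls (SE 0.09, adjusted p = 0.776).

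PPIL1, which binds the splicing factor SNW1, was lower with CsA than in controls on every array at 48 h. Its 222500_at read 12.24, 12.19 and 11.79 with CsA at 48 h, against 12.67, 12.32 and 12.45 in the 48 h controls, and 12.11, 11.96 and 12.05 with CsA at 12 h, against 12.04, 11.98 and 12.02 in controls. The 12 h groups overlapped. The change was -0.41 at 48 h, 0.753-fold (SE 0.17, interval -0.82 to 0.00, adjusted p = 0.256), and 0.03 at 12 h (SE 0.07, adjusted p = 0.973). Without CsA 48 h replicate 3 it was -0.27. In controls PPIL1 rose with time by 0.47 (SE 0.11, adjusted p = 0.0161), and in CsA cells its change was 0.03 (SE 0.14, adjusted p = 0.876). The difference between these was -0.44 (SE 0.18, interval -0.84 to -0.03), with an adjusted p of 0.285. The rise in controls was not called without control 12 h replicate 2 (0.45, adjusted p = 0.0553) or 3 (0.47, adjusted p = 0.0555).

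PPIL3, a small spliceosomal cyclophilin, showed a similar order with smaller steps. Its 224364_s_at read 9.71, 9.85 and 9.84 with CsA at 48 h, against 9.89, 10.12 and 10.01 in the 48 h controls, and 9.72, 9.72 and 9.67 with CsA at 12 h, against 9.72, 9.76 and 9.67 in controls. The 48 h groups did not overlap, with a change of -0.21 (SE 0.11, interval -0.48 to 0.07, adjusted p = 0.383), and the 12 h groups did, with -0.01 (SE 0.06). In controls it rose with time by 0.29 (SE 0.09, adjusted p = 0.0449, and 0.0629 with the replicate number as a block). That call was also lost in 5 of 6 fits without 1 array: without control 12 h replicate 1 (0.29), 2 (0.31) or 3 (0.27) and without control 48 h replicate 2 (0.23) or 3 (0.28). In CsA cells the change was 0.10 (SE 0.09, adjusted p = 0.426).

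PPIG, a large nuclear cyclophilin with an arginine-serine domain, had 4 usable probe sets whose changes differed in sign. Set 208993_s_at read 10.90, 11.11 and 10.85 with CsA at 48 h, against 11.33, 11.44 and 11.19 in the 48 h controls, and 11.39, 11.64 and 11.33 with CsA at 12 h, against 11.43, 11.54 and 11.16 in controls. Its CsA arrays were below the controls at 48 h and overlapped them at 12 h. The change was -0.37 at 48 h (SE 0.13, interval -0.68 to -0.06, adjusted p = 0.197) and 0.08 at 12 h (SE 0.13, adjusted p = 0.957), and the difference was -0.45 (SE 0.18, adjusted p = 0.275). The other 3 sets, 208994_s_at, 208995_s_at and 225902_at, gave 0.01, -0.15 and -0.17 at 48 h and overlapped. In CsA cells 208993_s_at fell with time by 0.51 (SE 0.13, adjusted p = 0.0240), a call lost without CsA 12 h replicate 1 (-0.54) or 2 (-0.41) or CsA 48 h replicate 1 (-0.48), and its change in controls was -0.06 (SE 0.13). In controls 208994_s_at changed by -0.25 (SE 0.13, adjusted p = 0.165), and by -0.36 with adjusted p = 0.0382 without control 48 h replicate 1. Set 225902_at went the other way in controls, by 0.30 (SE 0.12, adjusted p = 0.0871). Set 208995_s_at changed by -0.26 in either kind of culture, and neither change passed. With array weights it was called in controls (-0.28, adjusted p = 0.0435) and in CsA cells (-0.43, adjusted p = 0.0304).

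**Figure D5:**
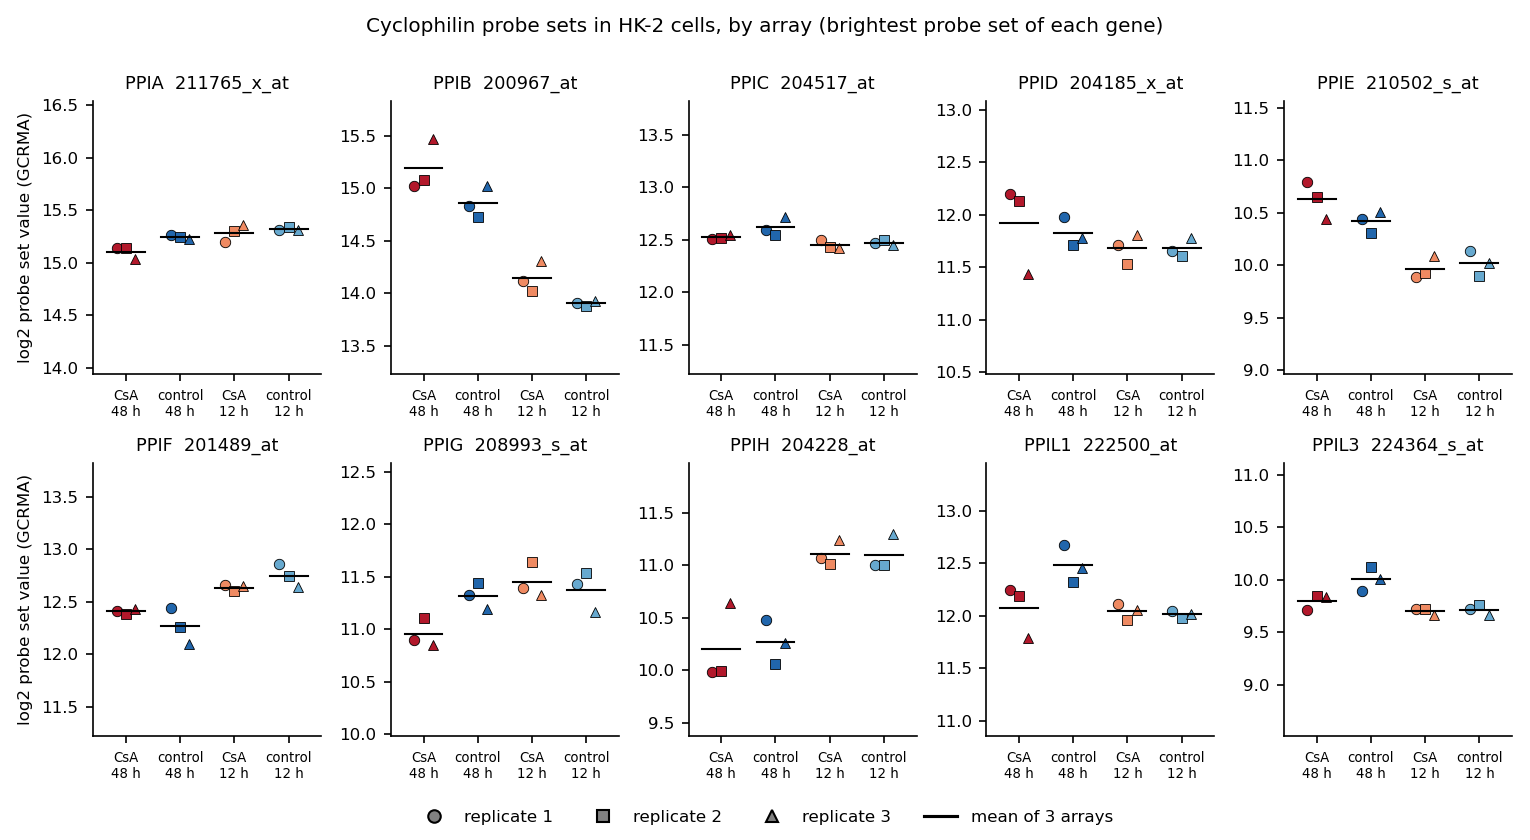
Log2 value of the brightest probe set of each cyclophilin gene on each array, with replicate numbers by symbol and a line at the mean of 3 arrays (each panel has its own level but spans the same range). Every 48 h array lies above every 12 h array for PPIB, PPIE and, narrowly, PPIC, and below for PPIF and PPIH. At 48 h the CsA arrays of PPIB lie above the controls and those of PPIA, PPIG, PPIL1 and PPIL3 below. At 12 h only those of PPIB are apart, and no change with CsA passed the test.

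Of 18 measured spliceosome partners of PPIE, PPIH, PPIL1 and PPIL3, none passed with CsA. Their median was 0.12 at 48 h and -0.03 at 12 h, and the smallest p at 48 h belonged to BCAS2 with 0.48 (SE 0.18, adjusted p = 0.216) and PLRG1 with 0.40 (SE 0.21, adjusted p = 0.360), both of the PRP19 complex. With time 2 rose and 1 fell in CsA cells, beside 22.3% and 21% of all genes, and 2 rose and 4 fell in controls, beside 23.1% and 20.5%.

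Probe sets of the same gene agreed in part. Of 6 genes with several usable sets, all sets had the same sign for 5 with CsA at 48 h and for 4 at 12 h, and for 5 in both time comparisons. PPIG had the widest spread in each, with sets 0.38 apart at 48 h, 0.22 at 12 h, and 0.67 and 0.56 over time in CsA and control cells. The median distance over the 6 genes was 0.09 at 48 h and 0.02 at 12 h. The 4 sets that did not pass the filter, of PPIA, PPID (228469_at), PPIE (229375_at) and PPIH (236142_at), lay between 2.02 and 2.99 on all arrays and add no information on change.

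Other isomerase families and the target of the CsA complex were read beside the cyclophilins. Of 6 measured further cyclophilin-type isomerases none passed with CsA. CWC27, a spliceosomal member, had 0.37 at 48 h (SE 0.15, adjusted p = 0.245) and NKTR, a large member of natural killer and other cells, 0.38 (SE 0.15, adjusted p = 0.246). Of 14 FKBP isomerases and parvulins, which do not bind CsA, none passed, with a median of -0.33 at 48 h and -0.07 at 12 h. The smallest p belonged to FKBP7, an ER isomerase, which read 7.31, 8.14 and 6.89 with CsA at 48 h, against 9.25, 10.04 and 8.99 in the 48 h controls. Its arrays did not overlap, beside 27.5% of all probe sets at 48 h, and the change was -1.98 (SE 0.40, adjusted p = 0.0950). FKBP9, also of the ER, read 9.55, 9.63 and 9.49 with CsA, against 10.14, 10.08 and 9.99 in controls, also without overlap, with -0.52 (SE 0.10, adjusted p = 0.0958). Of the 5 measured genes for calcineurin and its regulators none passed with CsA, with PPP3CC at 0.73 (SE 0.21, adjusted p = 0.153) and PPP3CB at 0.46 (SE 0.13, adjusted p = 0.155) at 48 h, both catalytic subunits. RCAN1, a regulator chosen after its values were seen, lay lower at 48 h, by -0.47 (SE 0.15, adjusted p = 0.17), and its arrays did not overlap. Those of PPP3CC and PPP3CB did not overlap either, with CsA higher, beside the same 27.5% of all probe sets. Of the 5 changes at 48 h, 3 were positive.

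Genes with the nearest pattern to a cyclophilin were ranked by the root mean square difference of log2 values over the 12 arrays, each centred on its own mean, among 11153 other genes. For PPIA they were GAPDH (0.030), a glycolytic enzyme often used as a reference, NDUFB8 (0.033) and ATP5PO (0.037), set against an SD of 0.090 for PPIA itself. For PPIB they were HCG18 (0.106), EPRS1 (0.115), a tRNA synthetase, and PXDC1 (0.116), with an SD of 0.536 for PPIB. PPIH was nearest to PSMD2 (0.112), B3GLCT (0.114) and HAT1 (0.118), and PPIL1 to PI4K2A (0.094), TMX3 (0.105) and SPAST (0.106). The measure does not scale for size, so distances to PPIA are short in part because PPIA varied little. A gene that did not vary at all would lie 0.090 from PPIA. With CsA GAPDH changed by -0.13 at 48 h and -0.02 at 12 h, beside -0.14 and -0.03 for PPIA.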

How the data were processed

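Per the submitters' processing notes the authors used GCRMA, and the deposited tables hold its log2 values. Neither its version nor its settings are recorded there. GCRMA usually corrects background from probe sequence and normalizes quantiles, which compresses dim probe sets toward a floor. Per the labels, biotinylated cRNA was hybridized to Affymetrix arrays. No counts exist, so precision rests on 3 arrays a group.

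A platform annotation gave 1 gene symbol to 41091 probe sets, control probe sets aside. It gave several to 1801 and none to 11777, counted with the control probe sets. Symbols were updated through RefSeq by gene identifier. Probe sets with 1 symbol and a log2 value above 4 on at least 3 arrays, 20625 in all, entered limma 3.58.1 in R 4.3.3. Each comparison used its own 6 arrays, and the difference of CsA effects used all 12. Tests were two-sided, with Benjamini-Hochberg adjustment over all probe sets tested and a threshold of 0.05. The script was tested on simulated data. Lists of related genes are described by counts and medians of each gene's brightest probe set. Named from each list are the 2 members with the smallest p at 48 h, unless stated. Members and lists were chosen with earlier results of these data known, and the comparison of CsA at 48 h with 12 h and the fit of shared PPIA probe sets were added after seeing the data.

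Pairing by replicate number, which the labels give, was checked across probe sets: deviations from group means were correlated between arrays of the same number. The correlation was 0.462, 0.550 and 0.392 between CsA and control at 12 h and 0.124, 0.130 and 0.295 between controls of both times, all above 0.1. At 48 h it was -0.107, 0.306 and -0.149.  No 2 arrays held identical values. Alternatives were the replicate block, all 12 arrays in 1 fit, other filters and gene summaries, repeated quantile normalization, array weights, trend and robust priors, and leaving out arrays.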

Additional observations from a re-analysis of the deposited data

How the results depend on the processing

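No cyclophilin probe set passed in either CsA comparison or in the test of their difference under any alternative run, each single array left out included. The lowest adjusted p at 48 h was 0.0503 with all 12 arrays in 1 fit. The total of calls over all probe sets at 48 h was far less stable: 8 as reported, 2620 with all 12 arrays, 1998 with array weights, 133 with trend and robust priors, 123 and 88 with 1 value a gene (brightest or mean), 82 with a filter at 6, 1 with no filter, 0 with the replicate block or without both 48 h replicate 1 arrays, and 0 to 23 with 1 array left out (23 without control replicate 3, 5 without CsA replicate 3, otherwise 0). For the difference it was 66, against 1253 with array weights and 243 with the block, and 482, 349 and 323 without CsA 48 h replicate 3, control 48 h replicate 3 or CsA 48 h replicate 2, and 0 to 5 without any other array. In controls over time 9 cyclophilin sets passed, beside 39.3% of all probe sets. With 1 array left out 5 to 10 passed (5 without control 12 h replicate 2), beside 27.9% to 38.4% of all. In CsA cells 7 of 18 passed, beside 39.6% of all probe sets, and 10 with array weights, beside 56.1%. With no filter 5 of 22 passed, of PPIB, PPIE and PPIF, beside 14.7% of all probe sets. With 1 value a gene, 4 of 10 genes passed with the brightest set, beside 45.8% of all genes. With the mean of sets 3 of 10 passed, beside 45.7%. The number of sets called in CsA cells was 4 without both 48 h replicate 1 arrays, beside 30.2% of all probe sets. It was 4 to 9 with 1 array left out, beside 26% to 49% of all. With the replicate block 8 passed over time in controls and 6 in CsA cells, beside 39.6% and 31.9% of all probe sets. There the calls of PPIL3 in controls (adjusted p = 0.0629) and of PPID 204186_s_at in CsA cells (0.0991) were lost. The block changed no other member's call, and same-numbered arrays did not pair between CsA and control at 48 h or between the CsA groups.

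Changes near 0 turned sign under some alternatives. The cause was not tested, and none of these values had passed the test. With array weights the change with CsA at 12 h was -0.01 for PPID 204185_x_at, 0.01 for PPIG 208994_s_at and -0.02 for PPIH, that at 48 h was -0.10 for PPIG 208994_s_at, and that with time in CsA cells was -0.01 for PPIC 204518_s_at and -0.03 for PPIG 225902_at. Without both 48 h replicate 1 arrays it was -0.02 for PPIF 201490_s_at, 0.02 for PPIG 225902_at and 0.15 for PPIH at 48 h, and -0.05 for PPIL1 with time in CsA cells.

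With 1 array left out at a time, the change with CsA at 12 h ranged -0.07 to 0.01 for PPIA, -0.06 to 0.08 for PPID 204185_x_at, -0.02 to 0.08 for PPID 204186_s_at, -0.11 to 0.01 for PPIE 210502_s_at, -0.02 to 0.16 for PPIE 202494_at, -0.22 to 0.01 for PPIF 201490_s_at, -0.03 to 0.16 for PPIG 208993_s_at, -0.15 to 0.15 for PPIG 208994_s_at, -0.17 to 0.12 for PPIG 225902_at, -0.06 to 0.11 for PPIH, -0.01 to 0.07 for PPIL1 and -0.04 to 0.01 for PPIL3. For PPIA probe sets shared with the pseudogene it ranged -0.03 to 0.04 (211978_x_at), -0.04 to 0.02 (212661_x_at), -0.06 to 0.02 (201293_x_at), -0.06 to 0 (211378_x_at) and -0.09 to 0.42 (217602_at). At 48 h it ranged -0.13 to 0.05 for PPIC 204518_s_at, -0.05 to 0.33 for PPID 204185_x_at, -0.05 to 0.28 for PPIF 201490_s_at, -0.15 to 0.12 for PPIG 208994_s_at and -0.29 to 0.04 for PPIH. With time it ranged -0.03 to 0.09 for PPIC 204518_s_at and -0.17 to 0.02 for PPIG 208993_s_at in controls, and -0.05 to 0.13 for PPIC 204518_s_at, -0.03 to 0.30 for PPIG 225902_at and -0.05 to 0.17 for PPIL1 in CsA cells. Among all such single values and alternatives, 167 of 198 with CsA at 12 h, 206 of 222 at 48 h, 193 of 222 with time in CsA cells and 200 of 222 in controls kept their direction and side of the threshold.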
